A study of Mus musculus with 38 samples.

Results

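Plasmablasts were compared with control pre-plasmablasts, 2 RNA sequencing libraries each, which are 4 of the 38 mouse samples of the series. The libraries were chosen by their labels: plasmablasts (RNA-seq PB) were sorted as CD138+ GFP+ cells and pre-plasmablasts (RNA-seq Pre-PB) as CD138– GFP+ cells. Both came from C57BL/6 cells of the genotype Blimp1(GFP/+) Cd23(Cre/+) cultured with lipopolysaccharide (LPS), a component of bacterial walls and a strong B cell stimulus, for 4 days. The question is which transcripts differ once a cell that already transcribes Blimp1 also carries CD138 on its surface. The test covered 10473 of the 11441 genes listed once, those that reached 1 RPKM in 2 libraries or more. RPKM is a read count divided by gene length and by library size. The filter had its edge at Hmgcll1, kept with a second highest value of 1.001 RPKM, and Tnik, left out at 0.9986 RPKM.

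The GFP reporter stands in 1 of the 2 Blimp1 alleles, so every cell compared carried 1 reporter allele, and Cd23-Cre was present in both groups without a floxed Blimp1 allele. The cells are products of LPS culture and not of an immune response in the animal. Activated B cells of the same genotype and culture (CD138– GFP–) and Blimp1-deficient pre-plasmablasts (Blimp1(GFP/fl) Cd23(Cre/+), sorted as CD138– GFP+ CD22hi) entered the same fit for the spread between libraries, and their levels are given beside those of the comparison. Nothing in the labels says whether a group's 2 libraries are from different animals or cultures. The p-values therefore measure the spread between these libraries alone, and it may be technical. The library numbers in the titles form 2 series, with 1 library of each group in each. Values are given in the order first series, second series throughout. What a number series stands for is not stated in the labels.

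A plasmablast is a dividing cell that has begun to secrete antibody. Blimp1, encoded by Prdm1, represses genes of the B cell, and with Irf4 and Xbp1 it drives the making of a cell with a large endoplasmic reticulum, in which antibody chains are folded, glycosylated and checked before they leave by vesicle. The B cell, by contrast, presents antigen on MHC class II molecules and homes to follicles. CD138, or syndecan-1, is a heparan sulphate proteoglycan used as the standard surface marker of plasmablasts and plasma cells.

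In plasmablasts 733 genes were higher (7.00% of genes tested) and 1395 were lower (13.3%), by limma with the library series as a block and a Benjamini-Hochberg adjusted p below 0.05. Most differences were small: the median size was 0.39 on the log2(RPKM + 1) scale for genes called higher and 0.40 for genes called lower, and 9759 of the genes tested (93.2%) lay within 0.5 of no change. A difference of 2-fold or more was called for 29 higher and 109 lower genes. Without the block, 75 genes were called higher (0.716%) and 170 lower (1.62%), of which 21 and 82 by 2-fold or more, and all 245 were also called with it. Counts without each of the 4 libraries in turn ran from 145 higher and 395 lower (without the first plasmablast library) to 396 higher and 877 lower (without the second plasmablast library). Without the first and second pre-plasmablast libraries they were 250 and 301 higher, and 489 and 685 lower.

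The balance of the 2 directions rested on scaling. With the deposited scaling 34.4% of calls were higher, and with median-of-ratios scaling of the RPKM values 55.5% (1181 higher, 946 lower). That scaling moved the median difference of all genes from -0.04 to 0.02 on the log2 scale. All 733 higher calls were also made under it, as were 946 of the 1395 lower calls, and all 29 and 109 calls of 2-fold or more. The 2 groups did not overlap, with both libraries of one above both of the other, in 642 of the genes called higher and 1178 of those called lower. Over all genes tested this was so for 4417 genes, or 42.2%. In bulk samples, fewer cells of a type and less RNA per cell cannot be told apart.

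**Figure D1:**
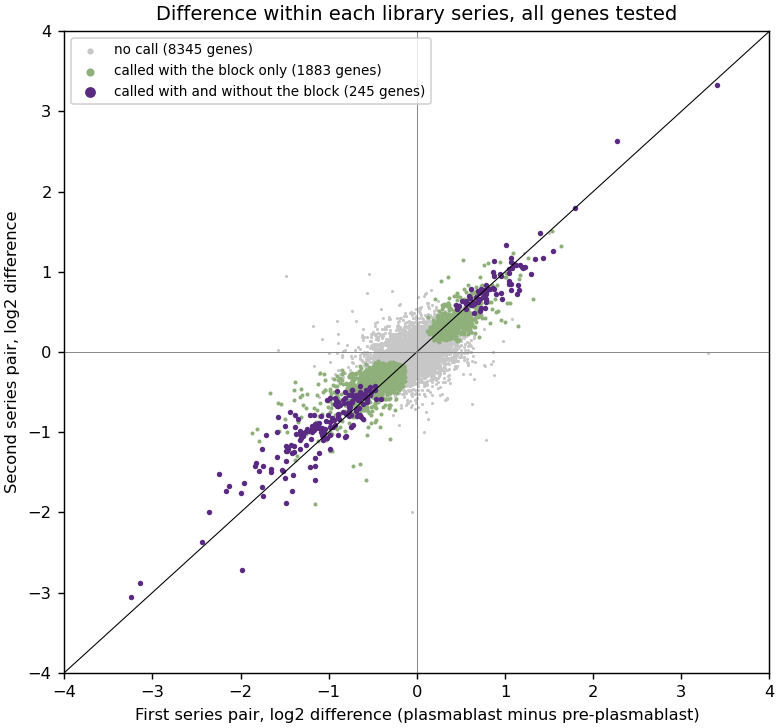
Difference between plasmablast and pre-plasmablast on the log2(RPKM + 1) scale in the pair of the first library series (horizontal axis) against the second (vertical axis), 1 point for each of 10473 genes, coloured by call, with the line of equality. Genes called with and without the block reach from the 2 ends of the diagonal towards its middle, and most genes lie near 0 in both pairs.

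The differences within the first and the second series pair had a Pearson correlation of 0.76 across the 10473 genes, which are not independent, and the same sign in 7806 genes (74.5%). The plot of the differences in the 2 library series shows this, with 142 genes at an absolute difference of 1 or more, of which 138 were called.

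Sdc1, which encodes CD138, had the largest rise. It stood at 2.19 and 2.12 RPKM in pre-plasmablasts and at 32.7 and 30.5 RPKM in plasmablasts (log2 fold change 3.36 ± 0.13 SE, adjusted p = 1.84e-05). Since CD138 set the gate, this checks the sort at the level of its transcript and is no finding. Activated B cells held 0.408 and 0.584 RPKM, so pre-plasmablasts sorted as CD138– were not without the transcript.

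Prdm1, the gene of the reporter locus, was not called. It stood at 429 and 327 RPKM in pre-plasmablasts and at 363 and 289 in plasmablasts (log2 fold change -0.21 ± 0.18, adjusted p = 0.456). The groups overlapped, while within each series the plasmablast library was the lower (-0.24 and -0.18). The adjusted p was 0.00946 in the fit of the 4 libraries compared alone and 0.0618 without the activated B cells. Of 13 tested regulators of the plasma cell state, 4 rose and 1 fell, and none passed without the block. The median of the list was 0.29, beside -0.04 for all genes.

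The regulators that rose were Creb3l2, Atf6, Ell2 and Ern1. Atf6 and Ern1 also stand in the list of the unfolded protein response below and are counted again there. Creb3l2, a transcription factor held in the membrane of the endoplasmic reticulum, rose from 32.2 and 38.0 to 50.7 and 58.2 RPKM (0.62 ± 0.07, adjusted p = 0.000979, and 0.135 without the block). Atf6, a sensor of unfolded proteins, rose from a mean of 93.9 to 132 and 121 RPKM (0.43 ± 0.08, adjusted p = 0.00825, and 0.0992 without the block). Ern1, the sensor that splices Xbp1 mRNA, rose from 26.1 and 30.0 to 33.2 and 36.3 RPKM, and Ell2, an elongation factor that favours the secreted form of the antibody heavy chain, from 177 and 226 to 232 and 268. The member that fell was Ikzf3, which encodes Aiolos. Without the first plasmablast library 1 regulator was called higher, and without the second 3.

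Irf4 and Xbp1 had higher values in both plasmablast libraries and were not called. Irf4 stood at 330.1 and 288 RPKM in pre-plasmablasts and 412 and 351 in plasmablasts (0.30 ± 0.12, adjusted p = 0.116). Xbp1 stood at 1156 and 1443 and at 1511 and 1757 RPKM (0.33 ± 0.14, adjusted p = 0.129). In a fit without the activated B cells, the adjusted p was 0.0231 for Irf4 and 0.0308 for Xbp1. It was 0.000869 and 0.00140 in the fit of the 4 libraries compared alone, and 0.374 and 0.721 without the block. The calls for both genes therefore depended on which libraries set the spread. Myc, a driver of growth that Blimp1 represses, was at 76.7 and 71.7 RPKM and at 77.7 and 69.4 RPKM (-0.01 ± 0.12, adjusted p = 0.950).

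Igj encodes the J chain that links antibody multimers. Its level was 1621 and 3403 RPKM in pre-plasmablasts and 4576 and 9566 RPKM in plasmablasts, a log2 fold change of 1.49 ± 0.59. Within each group the second library was well above the first, and the groups did not overlap. Without 1 library in turn the log2 fold change ran from 0.79 to 2.20. The adjusted p was 0.112 in the fit of all 8 libraries and 0.700 without the block. It was 0.0208 without the activated B cells, whose 2 libraries held 7.33 and 118 RPKM, and 2.98e-08 with the 4 libraries of the comparison alone. The call for Igj therefore depended on which libraries set the spread. Slpi, a secreted protease inhibitor, had 817 and 784 RPKM in pre-plasmablasts and 1907 and 1857 in plasmablasts without being called (1.23 ± 0.47, adjusted p = 0.104).

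The list of J chain and secreted products holds Igj and Slpi, and several members of the secretory lists below. Of its 17 tested members 8 rose (47.1%) and 2 fell (11.8%), with a median of 0.33, and without a library in turn 1 to 6 rises were called. Ccl5, a chemokine, fell from 71.3 and 52.4 to 23.0 and 20.5 RPKM (-1.45 ± 0.11, adjusted p = 0.000293) and was the member called without the block. Prg2, a granule protein, fell from 25.0 and 27.5 to 16.1 and 16.3 RPKM. 2010001M09Rik, also known as Mzb1, a chaperone of antibody assembly, rose from 6620 and 4366 to 8500 and 5694 RPKM with groups that overlapped (0.37 ± 0.11, adjusted p = 0.0484).

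**Figure D2:**
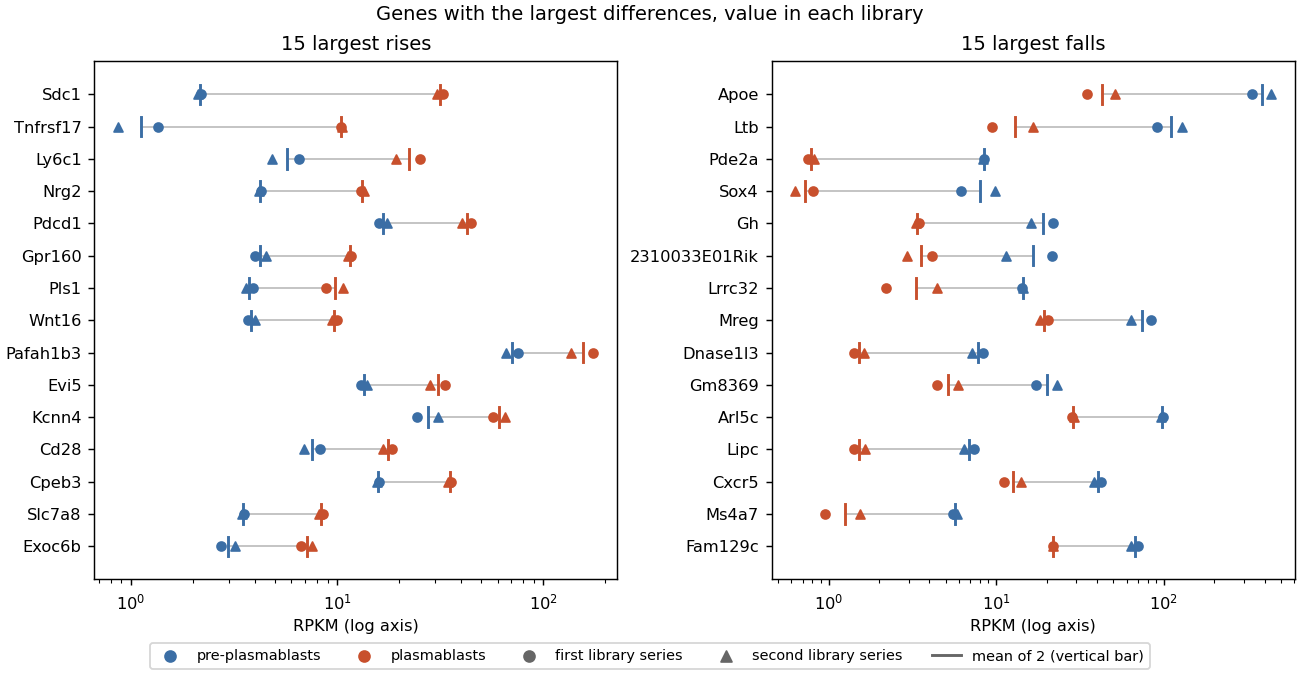
RPKM on a log axis in each of the 4 libraries for the 15 genes with the largest rise (left) and the 15 with the largest fall (right) among genes called with and without the block. Circles are libraries of the first series and triangles of the second, vertical bars are means of 2, and the groups do not overlap for any of the 30 genes.

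Receptors and surface molecules led the rises. Tnfrsf17 encodes BCMA, a receptor for survival factors of plasma cells, and rose from 1.36 and 0.867 to 10.4 and 10.6 RPKM (2.45 ± 0.14, adjusted p = 7.18e-05). Ly6c1, a surface molecule anchored by lipid, rose from 6.53 and 4.86 to 25.3 and 19.3 RPKM (adjusted p = 0.000839). Reads of Ly6c1 may be shared with close family members, so its value is uncertain. Pdcd1, the inhibitory receptor PD-1, rose from 16.0 and 17.4 to 44.7 and 40.4 RPKM (1.30 ± 0.13, adjusted p = 0.000792), and Cd28, a costimulatory receptor also found on plasma cells, from 8.30 and 6.89 to 18.5 and 16.7 RPKM (1.12 ± 0.10, adjusted p = 0.000540). The plot of the largest changes shows the 2 plasmablast libraries of each of these genes close together and well above both pre-plasmablast libraries.

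In the list of plasma cell surface and survival receptors, 7 of 21 tested members rose (33.3%) and 3 fell (14.3%). Sdc1, Tnfrsf17, Ly6c1, Cd28 and Itga4 were the 5 called without the block. The place of Sdc1 among them follows from the CD138 gate. Itga4, the integrin alpha 4 chain, rose from 41.1 and 40.3 to 62.2 and 66.2 RPKM (0.64 ± 0.06, adjusted p = 0.000613). Epcam, an adhesion molecule, rose from 10.4 and 13.5 to 26.3 and 31.6 RPKM (1.21 ± 0.10, adjusted p = 0.000398, and 0.0762 without the block). The members that fell were Ly6d, Cd93 and Fcrl5, the last with groups that overlapped. Tigit, an inhibitory receptor, rose from 64.9 and 60.5 to 138 and 139 RPKM (1.13, adjusted p = 0.0119). The median of the list was 0.09, and receptors of the same survival system such as Tnfrsf13b (-0.06), which encodes TACI, were not called.

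The other large rises fell in no list. Nrg2, a growth factor of the neuregulin family, rose from 4.30 and 4.20 to 13.0 and 13.5 RPKM (1.44 ± 0.11, adjusted p = 0.000250), and activated B cells held 0.0766 and 0.231 RPKM. Wnt16, a secreted Wnt ligand, rose from 3.69 and 4.00 to 9.96 and 9.44 RPKM. Kcnn4, a potassium channel opened by calcium, had an order of its own: a mean of 118 RPKM in activated B cells, 24.4 and 31.0 in pre-plasmablasts, and 57.1 and 65.5 in plasmablasts (1.12 ± 0.09, adjusted p = 0.000250). Its pre-plasmablast libraries were below those of both other groups.

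Others of the 15 were of mixed function, with Pls1, Exoc6b and Slc7a8 serving structure or transport. Pafah1b3, a catalytic subunit of an enzyme that inactivates platelet-activating factor, rose from 75.0 and 65.6 to 175 and 137 RPKM (1.13 ± 0.06, adjusted p = 5.85e-05). Pls1, an actin bundler, rose from 3.89 and 3.62 to 8.87 and 10.7 RPKM, Exoc6b, a subunit of the exocyst that tethers secretory vesicles, from 2.74 and 3.19 to 6.71 and 7.56, and the amino acid carrier Slc7a8 from 3.54 and 3.45 to 8.59 and 8.18. Cpeb3, which binds the tails of mRNAs, rose from 15.9 and 15.7 to 35.8 and 34.5 RPKM, while activated B cells held 0.239 and 0.755 RPKM. The remaining members were Evi5 and the orphan receptor Gpr160, at log2 fold changes of 1.13 and 1.25.

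The largest fall was that of Apoe, which encodes apolipoprotein E, a carrier of lipids. It stood at 338 and 435 RPKM in pre-plasmablasts and at 34.7 and 51.2 RPKM in plasmablasts (-3.15 ± 0.15, adjusted p = 4.81e-05). Activated B cells held 33.8 and 38.6 RPKM, so of these 3 groups pre-plasmablasts alone had a high level. In the separate pre-plasmablast libraries treated with the solvent DMSO, Apoe was at 5.26 and 3.61 RPKM. Those files were normalized separately and come from cells of the genotype Blimp1(GFP/+), and among 10227 genes Apoe had the lowest value there relative to the control pre-plasmablasts (-6.16 on the log2 scale, where the 5th percentile of genes was -2.03). The source of that gap was not tested.

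Ltb, which encodes lymphotoxin beta, a TNF family ligand with a role in lymphoid tissue structure, fell from 91.1 and 128 to 9.48 and 16.5 RPKM (-3.01 ± 0.11, adjusted p = 1.84e-05). Pde2a, a phosphodiesterase of cyclic nucleotides, fell from 8.52 and 8.37 to 0.756 and 0.816 RPKM (-2.40 ± 0.09, adjusted p = 1.84e-05). Sox4, a transcription factor of early B cells, fell from 6.14 and 9.79 to 0.808 and 0.635 RPKM (-2.35 ± 0.19, adjusted p = 0.000344). For Ltb and Pde2a the values in activated B cells (143 and 168, and 6.66 and 7.02 RPKM) were near those of pre-plasmablasts or above them. Plasmablasts were thus the group with the low level for both.

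Several other large falls had a high level in the Blimp1-deficient cells. Dnase1l3, a secreted DNase, stood at 8.39 and 7.15 RPKM in control pre-plasmablasts, 1.41 and 1.63 in plasmablasts and 62.1 and 56.6 in Blimp1-deficient pre-plasmablasts. Lipc, the hepatic lipase gene, stood at 7.36 and 6.41, at 1.42 and 1.64, and at 37.1 and 36.1 RPKM, and Ms4a7, a membrane protein of the CD20 family, at 5.53 and 5.83, at 0.953 and 1.55, and at 32.4 and 38.7 RPKM. The log2 fold changes were -1.64 for Lipc and -1.58 for Ms4a7. Lrrc32, which encodes GARP, a surface holder of latent TGF beta, fell from 14.2 and 14.5 to 2.20 and 4.42 RPKM (-1.88 ± 0.20, adjusted p = 0.000883), below the 49.4 and 49.9 RPKM of activated B cells.

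Arl5c, a small GTPase of the ARF-like family, fell from 98.4 and 95.7 to 28.4 and 29.0 RPKM (-1.72 ± 0.05, adjusted p = 1.58e-05), and in this gene, as in Apoe, activated B cells (35.4 and 33.5 RPKM) were near plasmablasts. Fam129c, also called Niban3 and typical of B cells, fell from 70.5 and 63.5 to 21.8 and 21.8 RPKM, and Mreg, or melanoregulin, from 83.7 and 63.9 to 20.4 and 18.2 RPKM. 2310033E01Rik fell by 1.90 on the log2 scale, and Gm8369 fell by 1.77. Gh fell from 21.8 and 16.1 to 3.46 and 3.31 RPKM, and this value is uncertain, because Gh lies beside Cd79b, a highly expressed B cell gene, in the RefSeq annotation.

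**Figure D3:**
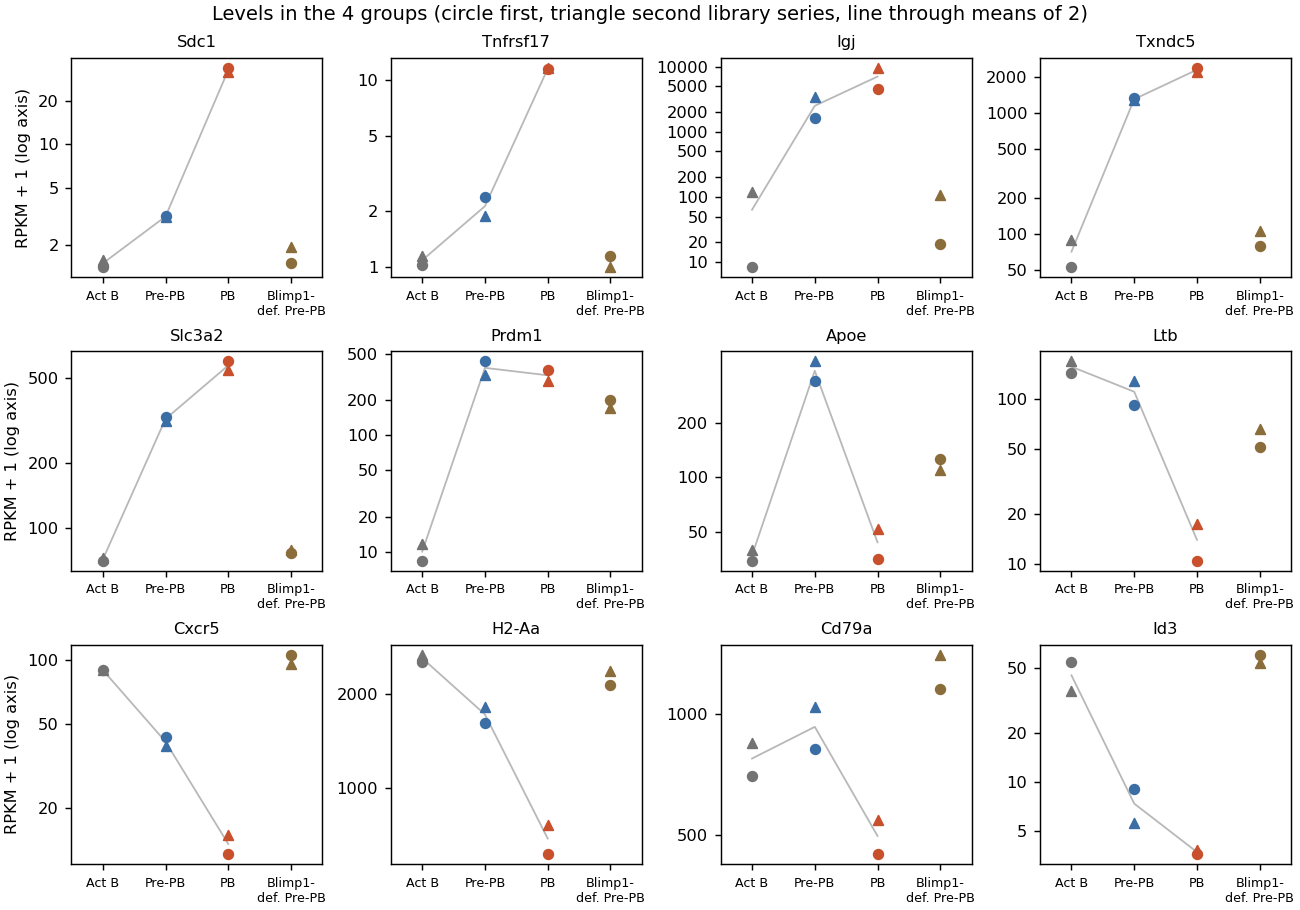
RPKM + 1 on log axes, scaled for each gene, in the 2 libraries of activated B cells (Act B), pre-plasmablasts (Pre-PB), plasmablasts (PB) and Blimp1-deficient pre-plasmablasts, with lines through the means of the first 3 groups. Sdc1, Tnfrsf17, Txndc5 and Slc3a2 are highest in plasmablasts, Apoe peaks in pre-plasmablasts, and Cxcr5, H2-Aa, Cd79a and Id3 are lowest in plasmablasts.

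The secretory apparatus rose broadly and by little. Of 34 tested sensors and chaperones of the unfolded protein response, 19 rose (55.9%) and none fell, with a median of 0.27. Fkbp11, a prolyl isomerase of the endoplasmic reticulum, had the largest rise in the list, from 167 and 109 to 337 and 209 RPKM (0.97 ± 0.21, adjusted p = 0.0183). Txndc5, a disulphide isomerase, rose from 1335 and 1272 to 2362 and 2211 RPKM (0.81 ± 0.19, adjusted p = 0.0214), and Fkbp2, a relative of Fkbp11, from 321 and 426 to 594 and 673 RPKM (0.77 ± 0.07, adjusted p = 0.000398). Txndc11 rose from 139 and 159.7 to 213 and 249 RPKM (0.63 ± 0.05, adjusted p = 0.000368). Hspa5, the central chaperone BiP, was at 1195 and 1851 RPKM and at 1454 and 1940 RPKM and was not called (0.18 ± 0.07, adjusted p = 0.136), and neither were Calr (0.02) and Canx (-0.07), which hold glycoproteins. None of the 19 calls held without the block, where the adjusted p of Fkbp11, Txndc5 and Fkbp2 was 0.163, 0.186 and 0.132. Without the first plasmablast library 3 members were called, without the second 17, and without the first and second pre-plasmablast libraries 10 and 7.

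The ER stress element, which Atf6 and Xbp1 are known to bind with NF-Y, was looked for in promoters, because the list rose together. The element was searched as CCAAT, any 9 bases, then CCACG, on both strands, in the RefSeq promoter table (GRCm38.p6, 250 bases before to 50 after the gene start). It was present in 8 of the 29 promoters of the list that were matched (27.59%), in 0.17% of the 8263 promoters of genes tested and in 0.12% of all 32851 promoters of the same length. The list was assembled as genes of the unfolded protein response, so this share says nothing about the rise. The element was in 3 of the 14 matched promoters of members called higher (21.43%), a smaller share than in the list. The stretches of those 3 genes, and of Derl3 from the list of ER-associated degradation, are shown on the strand of the gene, with the element in capitals.
Hsp90b1, chr10:86705618-86705676, minus strand: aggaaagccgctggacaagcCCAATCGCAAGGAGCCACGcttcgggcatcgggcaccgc
Hsp90b1, chr10:86705513-86705571, minus strand: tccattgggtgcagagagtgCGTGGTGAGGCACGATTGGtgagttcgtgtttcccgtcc
Dnajc3, chr14:118937807-118937865, plus strand: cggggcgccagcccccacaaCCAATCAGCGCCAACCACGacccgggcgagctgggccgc
Creld2, chr15:88819500-88819558, plus strand: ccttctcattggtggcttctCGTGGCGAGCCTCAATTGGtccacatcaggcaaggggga
Derl3, chr10:75893222-75893280, plus strand: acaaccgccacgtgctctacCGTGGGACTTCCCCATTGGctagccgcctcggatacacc
Hsp90b1, the chaperone GRP94, holds 2 copies, 1 in each direction, and in the second Hsp90b1 stretch and in those of Creld2 and Derl3 the element runs against the gene. A match is a description of letters and not of binding. The 4 genes rose by 0.37 for Hsp90b1 (2063 and 2537 to 2833 and 3078 RPKM), 0.45 for the cochaperone Dnajc3, 0.52 for Creld2 and 0.40 for Derl3. These promoter genes were chosen after their values were seen.

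The steps around folding moved in the same direction. Of 33 tested members of the translocation channel, signal peptidase and oligosaccharyltransferase, 16 rose (48.5%) and none fell, with a median of 0.25. Ddost, a subunit of the oligosaccharyltransferase that adds sugar chains to new proteins, rose from 579 and 545 to 805 and 729 RPKM (0.45 ± 0.06, adjusted p = 0.00245). Tram2, a partner of the translocation channel, rose from 33.5 and 49.7 to 50.0 and 68.1 RPKM (0.51 ± 0.11, adjusted p = 0.0172), and Sec11c, of the signal peptidase, from 1180 and 1368 to 1756 and 1678 RPKM. Krtcap2 rose by 0.44, from 788 and 1239 to 1159 and 1544 RPKM, with groups that overlapped. None passed without the block, and the count without a library ran from 3 (without the first plasmablast or the first pre-plasmablast library) to 12 (without the second plasmablast library), with 7 without the second pre-plasmablast library.

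Of 48 tested genes of vesicle coats and cargo receptors, 20 rose (41.7%) and none fell, with a median of 0.19. Kdelr3, a receptor that returns resident proteins to the endoplasmic reticulum, rose from 5.85 and 5.11 to 9.33 and 8.97 RPKM (0.65 ± 0.14, adjusted p = 0.0157). Ergic1 rose from 208 and 194 to 306 and 266 RPKM (0.50 ± 0.07, adjusted p = 0.00234), the cargo receptor Tmed10 from 66.7 and 67.3 to 88.8 and 86.5, and the coat subunit Sec24a from 29.8 and 29.4 to 39.1 and 37.3. None passed without the block. The count was 1 without the first plasmablast library, 9 without the second, and 3 and 5 without the first and second pre-plasmablast libraries. The core TGACGTGG of the unfolded protein response element, searched on both strands, was in 7 of 42 matched promoters of the list (16.67%), beside 1.09% of promoters of genes tested. It was in 0 of 24 promoters of the translocation list and 0 of 33 of the N-glycan list. In the degradation list it was in 2 of 20, and in the unfolded protein response list in 2 of 29. Among called members it was in 4 of 18 vesicle, 2 of 14 unfolded protein response, 0 of 6 degradation, 0 of 11 translocation and 0 of 12 N-glycan promoters. The share of a list says nothing about its rise, and a link between the core and the rise was not tested. The ER stress element was in 0 of 42 vesicle, 0 of 24 translocation, 1 of 33 N-glycan and 2 of 20 degradation promoters.

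In ER-associated degradation, which removes misfolded chains, 7 of 27 tested members rose (25.9%) and none fell, with a median of 0.14. With median-of-ratios scaling 14 rose. Edem2, which trims sugars on proteins bound for degradation, rose from 281 and 250.1 to 449 and 398 RPKM (0.67 ± 0.08, adjusted p = 0.00178) and was the member called without the block (adjusted p = 0.0309). Sel1l, the scaffold of the ubiquitin ligase, rose from 179 and 193 to 267 and 274 RPKM (0.54 ± 0.06, adjusted p = 0.00124), and Erlec1, a lectin, from 43.2 and 46.4 to 64.1 and 65.3. Without the first plasmablast or first pre-plasmablast library 3 members were called.

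In N-glycan synthesis and trimming, 13 of 40 tested members rose (32.5%) and 1 fell. Man2a1, a mannosidase of the Golgi, rose from 64.7 and 66.2 to 95.6 and 102 RPKM (0.58 ± 0.06, adjusted p = 0.000897, and 0.0327 without the block). Man1b1, a mannosidase of the early pathway, rose from 185 and 141 to 271 and 215 RPKM. Pmm1, a phosphomannomutase, was the member that fell, from 39.9 and 32.1 to a mean of 24.9 ± 1.67 RPKM (SD, n = 2 libraries). Without the first plasmablast library 3 members were called higher, without the second 8, and without either pre-plasmablast library 5.

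Some genes of amino acid metabolism rose. Of 37 tested genes of amino acid synthesis, carriers and tRNA charging, 15 rose (40.5%) and none fell, with a median of 0.12. Slc3a2, the shared heavy chain of several amino acid carriers, CD98, rose from 328 and 312 to 594 and 544 RPKM (0.83 ± 0.06, adjusted p = 0.000196), and activated B cells held 69.2 and 70.9 RPKM. Pycr1, of proline synthesis, rose from 24.4 and 21.6 to 42.1 and 36.7 RPKM (0.75 ± 0.07, adjusted p = 0.000684). These 2 were the calls without the block. Chac1, a glutathione-degrading enzyme induced by Atf4, rose from 129 and 83.1 to 199 and 135 RPKM, and Slc6a9, a glycine carrier, from 21.0 and 20.9 to 30.3 and 33.3. Asns (0.17) and Psat1 (0.01), of asparagine and serine synthesis, were not called. Without the first plasmablast or second pre-plasmablast library 4 members were called, without the second plasmablast library 8 and without the first pre-plasmablast library 10.

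**Figure D4:**
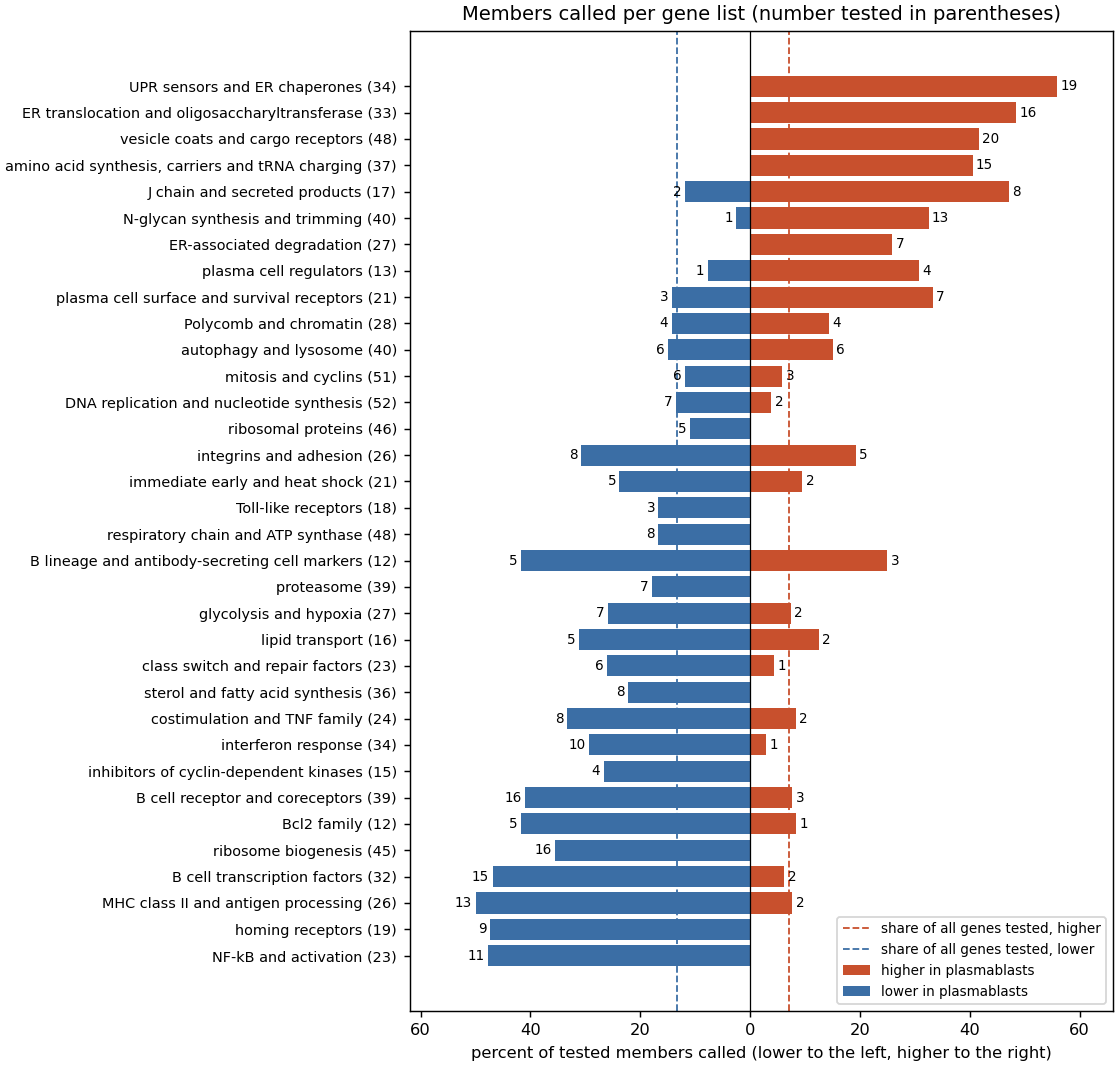
Percent of tested members called higher (right) or lower (left) in plasmablasts for the 34 gene lists with 10 or more tested members, with the number called at each bar and dashed lines at the share of all genes tested, 7.00% higher and 13.3% lower. Secretory lists and the amino acid list reach far right of the line, and lists of B cell identity, homing and NF-kB far left.

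MHC class II genes, the display system of the B cell, were among the large falls. In the list of MHC class II and antigen processing, 13 of 26 tested members fell (50.0%) and 2 rose, with a median of -0.20. H2-Aa, the alpha chain of the class II molecule I-A, fell from 1613 and 1816 to 613 and 761 RPKM (-1.32 ± 0.07, adjusted p = 5.85e-05). H2-Eb1, a beta chain, fell from 1178 and 1116 to 475 and 532 RPKM (-1.19 ± 0.08, adjusted p = 0.000168). H2-DMb1 and H2-DMb2, beta chains of the molecule that loads peptides, fell from a mean of 15.4 to 5.40 and 7.40 RPKM and from 34.4 and 45.3 to 9.24 and 20.5 RPKM. Reads of these near-identical paralogs may be shared, so the split between them is uncertain. In every one of these genes both plasmablast libraries lay below both pre-plasmablast libraries, which in turn lay below activated B cells.

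Of the 13 falls, 5 were called without the block: H2-Aa, H2-Eb1, H2-DMa, H2-DMb1 and H2-Ob. The count was 8 without either first library or without the second pre-plasmablast library, and 10 without the second plasmablast library. Ciita, the master activator of class II genes, named here after its value was seen, fell from 17.3 and 16.8 to 5.27 and 10.4 RPKM (-1.10 ± 0.22, adjusted p = 0.0130, and 0.0966 without the block). Cd74, the invariant chain, fell less, from 9782 and 9358 to 7507 and 7060 RPKM (-0.39 ± 0.08, adjusted p = 0.0138, and 0.239 without the block). Its mean in plasmablasts was the highest among genes listed once. No antibody heavy or light chain gene stands near the top of that ranking. Whether such genes are among those listed once is not given here, so the ranking does not measure antibody transcripts. In the second plasmablast library Igj was above Cd74, at 9566 RPKM. The 2 members that rose were Ctsb and Ifi30, a protease and a reductase of the lysosome, at 0.40 and 0.46. B2m, the light chain of class I molecules, was not called (-0.02 ± 0.09, adjusted p = 0.884).

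Class II promoters are known for a conserved module that ends in a Y box, the inverted CCAAT bound by NF-Y. Its core ATTGG, searched on both strands, was in 16 of 19 matched promoters of the list (84.21%), beside 43.4% of promoters of genes tested, so 5 letters alone are common. In the list of unfolded protein response genes, which rose, it was in 22 of 29 (75.86%). The stretches of the 7 class II genes that fell and hold the core in their matched promoter are shown to allow comparison around it. The core is in capitals, and all lie on chromosome 17 and are given on the strand of the gene.
H2-Aa, chr17:34287840-34287898, minus strand: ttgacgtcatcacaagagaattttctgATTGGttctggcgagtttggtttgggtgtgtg
H2-Eb1, chr17:34305781-34305839, plus strand: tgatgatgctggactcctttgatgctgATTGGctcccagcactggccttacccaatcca
H2-DMb1, chr17:34153103-34153161, plus strand: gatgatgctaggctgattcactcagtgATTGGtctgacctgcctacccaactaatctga
H2-DMb2, chr17:34145132-34145190, plus strand: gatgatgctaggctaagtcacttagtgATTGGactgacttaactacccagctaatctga
H2-Ob, chr17:34238821-34238879, plus strand: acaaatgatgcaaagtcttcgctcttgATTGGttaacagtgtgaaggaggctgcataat
H2-Oa, chr17:34092309-34092367, plus strand: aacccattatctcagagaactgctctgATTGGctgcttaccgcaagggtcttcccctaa
H2-DMa, chr17:34125293-34125351, plus strand: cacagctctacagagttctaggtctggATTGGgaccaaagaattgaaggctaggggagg
The capital cores of H2-Oa, H2-Aa, H2-Ob, H2-Eb1, H2-DMb1 and H2-DMb2 start 43, 48, 57, 59, 61 and 90 bases before the gene start, and that of H2-DMa 198 bases before it. H2-Eb1 holds another copy against the gene, which starts 35 bases before the gene start and is left in lower case in its stretch. The stretches of H2-DMb1 and H2-DMb2 share most of their letters. H2-Ob fell from 41.6 and 35.0 to 24.6 and 24.9 RPKM (-0.61 ± 0.08, adjusted p = 0.00321).

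Of 32 tested transcription factors of B cells, 15 fell (46.9%) and 2 rose, with a median of -0.26. Sox4 had the largest fall. Id2 and Id3, inhibitors of E proteins, fell from 5.67 and 2.56 to 1.78 and 1.19 RPKM (-0.98 ± 0.17, adjusted p = 0.00821, and 0.240 without the block) and from 8.10 and 4.62 to 2.62 and 2.82 RPKM (-0.94 ± 0.17, adjusted p = 0.00864, and 0.152 without the block). Id3 had been at 52.8 and 34.9 RPKM in activated B cells. Zeb2, a repressor with zinc fingers, fell from 8.46 and 5.98 to 3.59 and 4.05 RPKM.

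Other factors of the list were named after their values were seen. Pax5, the guardian of B cell identity, went from 13.5 and 25.6 to 8.25 and 20.5 RPKM with groups that overlapped (-0.48 ± 0.14, adjusted p = 0.0490, and 0.745 without the block). Ebf1 fell from 23.2 and 25.5 to 13.7 and 16.7 RPKM, and Irf8 from 145 and 153 to 86.2 and 105 RPKM. Sox4 and Irf8 were the 2 members called without the block. Bach2, which opposes Prdm1, was at 4.17 and 4.59 and at 2.96 and 4.01 RPKM (-0.27 ± 0.11, adjusted p = 0.116), and Spib (0.10) and Sfpi1 (-0.06) were not called either. The members that rose were Bcl6, the factor of germinal centre cells, from 5.64 and 7.36 to 9.37 and 10.1 RPKM (0.53 ± 0.09, adjusted p = 0.00737, and 0.200 without the block), and Klf3, whose groups overlapped. Neither was called without either first library. The number of falls was 5 without the first plasmablast library, 11 without the second, and 6 and 8 without the first and second pre-plasmablast libraries.

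Among 39 tested genes of the B cell receptor and its coreceptors, 16 fell (41.0%) and 3 rose, with a median of -0.20. Cd79a, a signalling chain of the receptor, fell from 819 and 1040 to 448 and 545 RPKM (-0.90 ± 0.05, adjusted p = 8.73e-05, and 0.0700 without the block). Of the 16 falls, 1 was called without the block. Malt1, a protease of the signalling complex that leads to NF-kB, fell from 23.2 and 31.3 to 13.1 and 18.1 RPKM. Against this, Pik3cg, the gamma catalytic subunit of phosphoinositide 3-kinase, rose from 83.5 and 72.1 to 178 and 172 RPKM (1.16 ± 0.28, adjusted p = 0.0252, and 0.181 without the block), from 0.636 and 2.73 RPKM in activated B cells. The number of falls was 9 without the first plasmablast library or either pre-plasmablast library.

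Homing receptors fell where they were called at all: 9 of 19 tested members fell (47.4%) and none rose, with a median of -0.27. Cxcr5, which draws B cells to follicles, fell from 42.5 and 38.2 to 11.2 and 14.0 RPKM (-1.61 ± 0.10, adjusted p = 0.000139). Ccr7, which draws cells to the T cell zone, fell from 26.8 and 24.4 to 9.24 and 14.2 RPKM (-1.09 ± 0.17, adjusted p = 0.00552), and S1pr3, a receptor for sphingosine 1-phosphate, from 7.97 and 8.84 to 3.35 and 4.06 RPKM (adjusted p = 0.000357). These 3 were also called without the block. Cxcr7, a scavenger of chemokine, fell from 4.14 and 2.71 to 1.36 and 0.726 RPKM. Cxcr4, the receptor known to guide plasma cells to bone marrow, was not called (0.09).

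Adhesion molecules went both ways, with 5 of 26 tested members higher and 8 lower and a median of 0.03. Itga4 rose as given above. Itgb3, the integrin beta 3 chain, fell from 5.56 and 7.72 to 1.95 and 2.49 RPKM (-1.24 ± 0.10, adjusted p = 0.000383), and Itga6 from 3.06 and 3.95 to a mean of 1.37 RPKM (-0.92 ± 0.13, adjusted p = 0.00287). Slamf6, a receptor between lymphocytes, fell from 52.2 and 70.7 to 31.8 and 46.8 RPKM.

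Of 24 tested costimulatory and TNF family genes, 8 fell (33.3%) and 2 rose. Cd86, a ligand of Cd28, went from 2.53 and 4.61 to 0.446 and 2.55 RPKM with groups that overlapped (-0.97 ± 0.18, adjusted p = 0.00921, and 0.378 without the block). Cd40, the receptor for T cell help, fell from 16.8 and 12.1 to 5.81 and 8.43 RPKM (-0.93 ± 0.19, adjusted p = 0.0123, and 0.0937 without the block). Ltb and Pdcd1, both given above, were the 2 members called without the block, and the other member that rose was Ctla4. Without the first pre-plasmablast library 2 falls were called, and without the first plasmablast library 5.

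In the NF-kB pathway 11 of 23 tested members fell (47.8%) and none rose, with a median of -0.27. Nfkbie, an inhibitor of NF-kB that is itself induced by it, fell from 78.3 and 68.5 to 29.3 and 30.0 RPKM (-1.28 ± 0.08, adjusted p = 0.000142). Nfkbid fell from 12.9 and 12.9 to 8.38 and 8.23 RPKM (-0.58 ± 0.07, adjusted p = 0.00172), the adaptor Traf1 from 51.2 and 38.8 to 29.3 and 26.6, and Tnip1 from 42.4 and 37.4 to 29.5 and 25.4. Without the block 4 were called, Nfkbie, Nfkbid, Nfkb2 and Tnfaip8. Of 18 tested Toll-like receptors and their partners, 3 fell (16.7%), near the share of all genes, with 2 falls and 3 rises under median-of-ratios scaling, and Tlr4, the LPS receptor, was not called (-0.24).

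Interferon response genes fell in 10 of 34 tested members (29.4%) and rose in 1, Bst2. Ifit1 fell from 6.85 and 7.10 to 1.85 and 2.51 RPKM (-1.33 ± 0.13, adjusted p = 0.000574) and Oasl1 from 108 and 87.9 to 53.8 and 47.7 RPKM (-0.93 ± 0.10, adjusted p = 0.000977), both antiviral. Rsad2, or viperin, fell from 9.86 and 8.55 to 5.36 and 5.24 RPKM. The regulators Irf7 (-0.06) and Irf9 (0.02) were not called. Without the block 3 falls were called, and without the first plasmablast library 5.

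In the Bcl2 family, which sets the threshold for cell death, 5 of 12 tested members fell and 1 rose. Without either plasmablast library 2 falls were called, and without the first and second pre-plasmablast libraries 1 and 4. The one that rose was Bcl2l11, which encodes the death-promoting protein Bim, from 29.2 and 30.1 to 40.2 and 45.3 RPKM (0.51 ± 0.07, adjusted p = 0.00245, and 0.0434 without the block). Those that fell promote death as well: Bid fell from 31.1 and 26.2 to 21.2 and 18.9 RPKM, Pmaip1 from 28.2 and 20.6 to 20.5 and 14.5, and Bbc3 from 157 and 193 to 125 and 159 with groups that overlapped, and Bax and Bak1 fell too. The protectors Bcl2 (-0.05), Bcl2l1 (-0.23) and Mcl1 (0.16) were not called. Only Bcl2l11 was called without the block among the 12.

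The cell cycle differed little. In 52 tested genes of DNA replication and nucleotide synthesis, 2 rose and 7 fell (13.5%), and in 51 of mitosis and cyclins 3 rose and 6 fell (11.8%), which are near the shares of all genes. With median-of-ratios scaling they were 3 and 3, and 5 and 4. Cdc25b, a phosphatase that starts mitosis, fell from 78.8 and 72.7 to 40.3 and 37.8 RPKM (-0.94 ± 0.05, adjusted p = 8.73e-05), and Cdk6, a kinase of early cycle, from 13.7 and 12.5 to 6.71 and 8.07 RPKM (-0.75 ± 0.11, adjusted p = 0.00470). Both were called without the block. Cdkn2a, a locus of inhibitors of the cycle, fell from 188 and 177 to 102 and 103 RPKM (-0.83 ± 0.07, adjusted p = 0.000472), and activated B cells held 18.8 and 22.1 RPKM. Of the 15 tested inhibitors of cyclin-dependent kinases and related brakes, 4 fell and none rose, the others being Btg1, Gadd45a and Cdkn1a, and with median-of-ratios scaling 2 fell and 2 rose.

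Ribosome biogenesis was lower in 16 of 45 tested members (35.6%) and higher in none, with a median of -0.17. Nob1, which completes the small subunit, fell from 40.6 and 32.5 to 30.4 and 23.2 RPKM (-0.44 ± 0.06, adjusted p = 0.00263) and Nop16 from 29.0 and 24.6 to 20.8 and 18.4 RPKM (-0.43 ± 0.07, adjusted p = 0.00484). None passed without the block, 12 were called with median-of-ratios scaling and 2 without the first plasmablast library. Ribosomal protein genes fell in 5 of 46 tested members, below the share of all genes, and reads of these genes may be shared with pseudogenes.

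Respiratory chain genes depended on the scaling. With the deposited scaling 8 of 48 tested members fell (16.7%) and none rose, and with median-of-ratios scaling 1 fell and 4 rose. Likewise 7 of 39 proteasome genes fell (17.9%), and 2 with the other scaling. Both shares are near the 13.3% of all genes tested that were called lower. In the synthesis of sterols and fatty acids 8 of 36 fell (22.2%), 5 with the other scaling, where 2 rose. Without the first plasmablast library 1 respiratory chain, 1 sterol and 0 proteasome genes were called lower, and without the second 0, 5 and 3. Without the first pre-plasmablast library there were 1, 1 and 1, and without the second 2, 4 and 3. Mvd, of the mevalonate pathway, fell from 67.6 and 59.5 to 42.2 and 40.4 RPKM (-0.61 ± 0.06, adjusted p = 0.000644, and 0.0709 without the block). Fasn, which makes fatty acids, was not called (-0.05).

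In lipid transport 5 of 16 tested members fell and 2 rose. Beside Apoe, Cd36, a receptor for fatty acids, fell from 127 and 126 to 66.4 and 66.6 RPKM (-0.92 ± 0.09, adjusted p = 0.000655), and both were called without the block. In glycolysis and the hypoxia response 7 of 27 fell (25.9%) and 2 rose. Egln3, an oxygen sensor, fell from 7.31 and 12.1 to 3.72 and 5.62 RPKM (-0.90 ± 0.11, adjusted p = 0.00147, and 0.210 without the block), while Vegfa, a secreted growth factor of vessels, rose from 70.2 and 50.0 to 113 and 88.7 RPKM (0.74 ± 0.21, adjusted p = 0.0394, and 0.178 without the block). None of the glycolysis calls held without the block.

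Among 28 tested Polycomb and chromatin genes 4 rose and 4 fell, or 6 and 1 with median-of-ratios scaling. Ezh2, the histone methyltransferase of the Polycomb complex PRC2, fell from 81.9 and 114 to 47.7 and 69.4 RPKM (-0.74 ± 0.10, adjusted p = 0.00280, and 0.186 without the block). The 2 groups did not overlap, and within each group the library of the second series was the higher. Kdm6b, which removes the mark that Ezh2 sets, rose from 10.5 and 11.9 to 14.8 and 16.5 RPKM (0.45 ± 0.07, adjusted p = 0.00552, and 0.185 without the block). Suz12 (0.13) was not called. Eed fell by 0.26 with groups that overlapped and was not called with median-of-ratios scaling (adjusted p = 0.0637).

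Of 23 class switch and repair factors 1 rose and 6 fell, or 2 and 3 with median-of-ratios scaling. Of 21 immediate early and heat shock genes 2 rose and 5 fell, or 2 and 3 with that scaling. Of 40 autophagy and lysosome genes 6 rose and 6 fell, the falls near the share of all genes. Wipi1, of the autophagy machinery, rose from 10.3 and 10.6 to 16.0 and 16.5 RPKM (0.59 ± 0.11, adjusted p = 0.00978). None of the calls in these 3 lists held without the block.

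The counts of falls in the remaining lists are given here with the first plasmablast, second plasmablast, first pre-plasmablast and second pre-plasmablast library left out in that order. Class switch factors had 0, 4, 0 and 1 falls, immediate early genes 2 in each case, and autophagy genes 4, 6, 4 and 5. DNA replication had 0, 4, 0 and 1, mitosis 1, 3, 2 and 5, and the inhibitors of cyclin-dependent kinases 1, 2, 2 and 2. Adhesion molecules had 5, 7, 6 and 7, NF-kB genes 7, 9, 8 and 7, Toll-like receptors 1, 2, 1 and 1, and interferon genes 5, 9, 7 and 6. Glycolysis had 2, 4, 2 and 3, lipid transport 3, 3, 3 and 5, ribosomal proteins 0, 2, 0 and 3, and Polycomb genes 1 in each case. Rises in the same order were 0, 3, 1 and 2 for autophagy, 2, 4, 2 and 3 for adhesion molecules, and 0, 1, 1 and 1 for Polycomb genes.

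Few markers of other cell types could be examined, so their values do not settle how pure the samples were. Not all were low, as the levels of Cst3, Flt3 and Fcer1g below show. The files compared list 5 of 13 T cell markers, 6 of 15 myeloid, 6 of 12 natural killer and dendritic cell and 3 of 9 erythroid and megakaryocyte markers. Tested T cell markers summed to 7.32 and 11.3 RPKM in pre-plasmablasts and to 6.81 and 9.35 in plasmablasts, and myeloid markers to 43.1 and 48.0 and to 37.4 and 35.8. Single markers moved within these sums. Tyrobp fell from 3.37 and 3.61 to 0.480 and 1.33 RPKM (-1.27 ± 0.23, adjusted p = 0.00895) and Fcer1g from 8.38 and 12.9 to 3.72 and 4.86 RPKM (-1.12 ± 0.13, adjusted p = 0.00134), both adaptors of receptors on myeloid and natural killer cells. The T cell adaptor Lat fell from 1.17 and 2.05 to 0.314 and 0.141 RPKM (-1.07 ± 0.19, adjusted p = 0.00846), while the myeloid receptor Mrc1 rose from 0.464 and 0.457 to 1.58 and 1.24 RPKM (0.72 ± 0.15, adjusted p = 0.0135). None of these 4 was called without the block. Of the erythroid and megakaryocyte markers, Car2 fell by 0.47. In the natural killer and dendritic cell list, Batf3 fell from 7.30 and 5.10 to 2.19 and 1.39 RPKM (-1.37 ± 0.12, adjusted p = 0.000438, and 0.126 without the block), Flt3 from 17.6 and 15.8 to 7.05 and 7.56 (-1.09 ± 0.07, adjusted p = 0.000163) and Prf1 from 1.93 and 2.06 to 0.438 and 0.427. Cst3 rose from 354 and 399 to 456 and 481 RPKM. Batf3 was at a mean of 7.60 ± 3.43 (SD, n = 2 libraries) and Flt3 at 48.5 and 45.3 RPKM in activated B cells. No tested marker of these 4 lists had a mean of 0 in either group. Their part in the falls of MHC class II and interferon genes was not tested. Of the cells' own markers, Sdc1, Tnfrsf17 and Ptprc rose, and 5 fell, among them Cd79a, Cd79b, Ms4a1 and Pax5. Sdc1 encodes CD138, which set the gate, so its rise follows from the sort and is no finding.

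Plasma cells sorted directly from Blimp1(GFP/+) mice (CD28+ CD138+ GFP+ Lin-, 2 libraries) and the DMSO-treated pre-plasmablasts are other libraries than those compared, with RPKM values that were not GC-normalized. They are described without a test. Of 27 genes that rose by 2-fold or more and have values there, both plasma cell libraries were above both DMSO libraries for 24 (88.9%). They were below both for 3 (11.1%). Of 106 that fell by 2-fold or more, both were below for 80 (75.5%) and above for 17 (16.0%). Sdc1 and Cd28 are among the 24. Their proteins set the plasma cell gate, so their place there follows from the sort and is no finding. Over all 10227 genes tested with values the shares were 50.3% above and 40.4% below. For all genes called higher they were 68.7% above, and for all called lower 59.9% below.

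Single genes show the range. Tnfrsf17 was at 1.23 and 1.56 RPKM in DMSO-treated pre-plasmablasts and at 369 and 331 in plasma cells. Sdc1, whose protein was part of the plasma cell gate, was at 3.01 and 2.57 and at 779.7 and 753. The values of both genes in plasmablasts of the culture were lower, but they were normalized in another way and are not directly comparable. Nrg2 was at 0.352 and 0.320 RPKM and at 70.3 and 68.2. Cxcr5 was at 78.4 and 80.0 RPKM in DMSO-treated pre-plasmablasts and at 0.239 and 0.226 in plasma cells. Pdcd1 went the other way, with 6.80 and 5.58 RPKM in DMSO-treated pre-plasmablasts and 0.706 and 0.642 in plasma cells. So did Wnt16, at 0.322 and 0.325 and at 0.170 and 0, and Pafah1b3, at 678 and 616 and at 566 and 550.2. Apoe, the largest fall, was higher in plasma cells, with 5.26 and 3.61 RPKM in DMSO-treated pre-plasmablasts and 27.4 and 29.9 in plasma cells. Lipc was at 16.2 and 13.5 RPKM and at 16.5 and 12.3, with groups that overlapped. Cells, culture and preparation differ together between these libraries, and their parts cannot be told apart.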

How the data were processed

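Per the labels' protocols, polyadenylated RNA was made into strand-specific libraries and read at 50 nucleotides. The build mm9 and the tools HTSeq 0.5.3, TopHat 1.4.1 and DESeq 1.8.3 are named without a role, per the submitters' processing notes. The gene annotation and the strand setting of counting are not given in the sources. The authors deposited RPKM values, GC-normalized per the file names for the 8 libraries of the fit and not for the plasma cell and DMSO libraries. Counts behind the values are unknown, since at most 4.23% of low genes shared a common step, so no count test was run. The 8 libraries summed to 437183 to 453307 RPKM, with 9744 to 10077 genes at 1 RPKM or more. In each file 126 entries with 61 repeated names were left out. Of the 11441 names, 9776 matched a RefSeq symbol (GRCm38.p6) and 1273 a synonym. Symbols are printed in mouse style, and Lrrc32 and Gm8369 stand in the files as transcript accessions. In the plasma cell files, names were realigned by removing 5 summary names without values.

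Values were analysed as log2(RPKM + 1), which understates changes of low genes. limma 3.58.1 in R 4.3.3 fitted 4 groups of 2 libraries with the library number series as a block (two-sided, eBayes with trend), after testing on simulated data. Differences between the 2 series within a group correlated across genes between all pairs of groups (r from 0.666 to 0.781), so the numbers, which stand in the titles, pair the libraries. Every adjusted p is from limma with Benjamini-Hochberg adjustment over all genes tested, and ± is its SE. Tables and plots were made with Python 3.11.15, pandas 2.3.3 and matplotlib 3.10.9.

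The gene lists (38) and the comparison were chosen with earlier results of these data known. Genes named were the 15 largest rises and falls called with and without the block, moving alike in both series and at a mean of 5 RPKM or more in the higher group, up to 4 called members of each list by size, and Prdm1, Sdc1, Irf4, Xbp1, Ezh2, Myc and Igj. Any other gene was named after its value was seen. Alternatives left out the block, each other group, both other groups or each library, or changed the pseudocount (0.25), the filter, the scaling or the variance trend. Some genes are not reported here.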

Additional observations from a re-analysis of the deposited data

How the results depend on the processing

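No named gene that was called changed direction under any of the 13 alternatives. In this balanced design, leaving out the block or other groups, or changing the filter or variance trend, cannot alter a fold change. Direction could therefore change only with the pseudocount, the scaling or a library left out. The 30 largest changes kept their call under each alternative in which they were tested. They were chosen as called with and without the block, so the result without the block was fixed by selection. Their choice by size and by like movement in both series favours the other alternatives too. Of the 159 named genes called, 105 lost the call without the replicate block, whose counts were 75 higher and 170 lower. Median-of-ratios scaling gave 1181 higher genes, and 44 higher by 2-fold or more. A pseudocount of 0.25 gave 53 higher and 165 lower genes by 2-fold or more, and a filter of 1 RPKM in 6 libraries 15 higher by 2-fold or more. Without 1 replicate in turn, counts ran from 145 to 396 higher and from 395 to 877 lower, with 26 to 39 and 77 to 136 by 2-fold or more. There the lone library of a group was assumed to vary like the others. Fits of the 4 libraries alone gave 1047 higher and 1795 lower genes. With 2 libraries a group and no read counts, the precision of single low values is unknown.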

Other observations

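Some abundant genes outside the lists fell by more than most genes of the report. They were picked after their values were seen. Fth1, the ferritin heavy chain that stores iron, stood at 1691 and 1870 RPKM in pre-plasmablasts and at 631 and 778 in plasmablasts (log2 fold change -1.34 ± 0.07, limma adjusted p = 5.85e-05, and 0.0113 without the block). Blimp1-deficient pre-plasmablasts held 3330 and 3839 RPKM. Laptm5, a lysosomal protein that lowers B cell receptor levels, went from 2175 and 2538 to 779 and 991 RPKM (-1.42 ± 0.07, adjusted p = 5.85e-05). Il21r, the receptor for interleukin 21, went from 218 and 213 to 77.7 and 89.2 RPKM (-1.36 ± 0.07, adjusted p = 5.85e-05), and Il2ra, the receptor chain CD25, from 25.1 and 28.3 to 8.03 and 9.56 RPKM. Il2ra was at 12.8 and 12.2 RPKM in activated B cells, so pre-plasmablasts were the highest of the 3 groups.

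Among abundant genes that rose, Trp53inp1, a target of p53, went from 208 and 221 to 464 and 397 RPKM (1.00 ± 0.07, adjusted p = 0.000225), and Spn, which encodes the surface sialoprotein CD43, from 47.5 and 51.6 to 99.0 and 103 RPKM (1.02 ± 0.06, adjusted p = 7.18e-05). Eomes, a transcription factor of T and natural killer cells, had 1.75 and 4.12 RPKM in pre-plasmablasts and 7.57 and 11.8 in plasmablasts (1.48 ± 0.15, adjusted p = 0.000874, and 0.0874 without the block). It was at 0.0657 and 0.305 RPKM in activated B cells and at 0.687 and 0.795 in plasma cells.

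Apoe and Pafah1b3 differed more between the 2 sets of pre-plasmablast libraries than nearly all genes. Apoe had the lowest value in the DMSO set relative to the control set among 10227 genes, and Pafah1b3, at 678 and 616 RPKM against 75.0 and 65.6, ranked 10222 (3.18 on the log2 scale, where the 95th percentile was 1.15). The sets differ in genotype, treatment and normalization, and which of these goes with the gaps cannot be told apart.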
